A study of Mus musculus with 12 samples.

Results

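The fibroblast growth factor (FGF), epidermal growth factor (EGF), platelet-derived growth factor (PDGF) and vascular endothelial growth factor (VEGF) families were examined in mouse colon after ablation of enteric neurons, together with insulin-like growth factor 1, hepatocyte growth factor and their receptors. Members were taken by gene symbol: the FGF ligands and receptors, the EGF ligands, neuregulins and ErbB receptors, the PDGF and VEGF ligands, and Pdgfrb, Flt1, Kdr, Flt4, Igf1, Igf1r, Hgf and Met. This gave 58 of 27179 genes, and no measured value entered the rule. RNA came from the whole thickness of the colon wall at a spot marked by ink, which had received diphtheria toxin into its muscle layer at laparotomy (4 µL at 0.33 ng/µL, with 10% India ink). The 7 ablated libraries had the genotype BAF53b-Cre::R26-iDTR, in which Cre driven by the promoter of the neuronal gene BAF53b turns on a diphtheria toxin receptor at the Rosa26 locus. The 5 control libraries had R26-iDTR without Cre and received the same toxin and ink. The labels used here do not give the time from toxin to dissection or say whether each library is a separate mouse. The p-values therefore describe the spread among these libraries, which may be technical.

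These families signal through receptor tyrosine kinases. A secreted or shed ligand brings receptors together at the cell surface, and the paired kinases start the RAS to ERK and PI3 kinase cascades inside the cell. In the gut wall, EGF ligands sustain the epithelium, PDGF-A passes from epithelium to the PDGFRA-positive cells beneath it, VEGF ligands act on blood and lymph vessels, and neuregulins act on glia through ErbB3. A small branch, Fgf11 to Fgf14, is not secreted: these proteins stay in the cell, bind voltage-gated sodium channels and are best known from neurons and heart muscle. An EGF ligand also has a tie to the experiment itself, since the receptor for diphtheria toxin is the membrane form of heparin-binding EGF-like growth factor. The iDTR transgene supplies a primate form of it, because the mouse form, encoded by Hbegf, binds the toxin poorly.

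Depth was 13.4 to 26.9 M reads per library, recovered from the deposited TPM (a transcript level scaled to transcript length and to the library total). Ablated 1 was the shallowest library and had the most mitochondrial RNA, 25.6% of its TPM. As a check of the genotypes, Gt(ROSA)26Sor, the transcript of the transgene locus, was at 1.82 ± 0.780 and 30.3 ± 9.35 TPM with groups that did not overlap (16.7-fold higher in ablated, limma adjusted p = 4.83e-06). Actl6b, which encodes BAF53b, was at 0.971 ± 0.372 and 0.447 ± 0.224 TPM (SD, n = 5 control and n = 7 ablated) and did not pass the test (limma adjusted p = 0.222). Of 16 enteric neuron markers 15 passed, all lower in ablated. The other, Elavl3, was also lower but did not pass (log2 difference -0.92, limma adjusted p = 0.0988). The median log2 difference of the 16 was -2.32, with summed levels of 188 to 407 TPM in control and 30.5 to 70.5 in ablated. Of 10 markers of enteric glia and Schwann cells, Ngfr alone passed, lower in ablated (3.73 ± 1.30 and 1.21 ± 0.446 TPM). None of the 10 had a positive log2 difference, and their median was -0.67. Their summed levels were 43.9 to 53.3 TPM in control and 32.5 to 44.1 in ablated. No marker of colonic epithelium (11 genes, 12860 to 16350 and 12960 to 21784 TPM summed), smooth muscle (8 genes, 6748 to 10548 and 7029 to 23187), skeletal muscle (15.8 to 31.0 and 34.4 to 131.0) or T, B and plasma cells (492.9 to 788 and 82.2 to 492.5) passed. The summed levels of skeletal muscle markers did not overlap (4 tested, all positive, median log2 difference 0.87). Those of T, B and plasma cells were narrowly apart (9 tested, 1 positive, median -1.07). The part of these markers in the results on single members was not tested, except where an epithelial, muscle or mitochondrial covariate is named.

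Of the 58 members, 41 reached the minimum for testing (0.5 TPM in at least 5 libraries), and Fgf13 alone was called. It was lower in ablated colon, and no member was higher. The same rule called 1.43% of all 16164 genes tested, 1.01% lower and 0.421% higher (adjusted p under 0.05, limma with Benjamini-Hochberg adjustment over all genes). Among the 41, Fgf13 was also the one member whose groups did not overlap, with ablated lower; this held for 1.55% of all genes, and for 2.88% in either direction. Positive log2 differences (log2 of TPM + 0.5, ablated minus control) were found for 29 members and negative ones for 12, with a median of 0.13 against 0.03 over all genes. The positive share was 70.7% of tested members and 55.7% of all genes tested. Unadjusted p-values under 0.05 were found for 5 of the 41, 4 of them on the higher side, against 11.8% of all genes. The 95% intervals, not adjusted for the number of genes, reached 0.26 to 0.93 log2 units to each side. Differences smaller than a gene's own reach were not detectable with these libraries, and larger ones could also miss the adjusted threshold. Vegfd, at 0.66 (interval 0.17 to 1.14), did not pass. In bulk tissue, fewer cells of a type and less RNA per cell cannot be told apart.

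**Figure D1:**
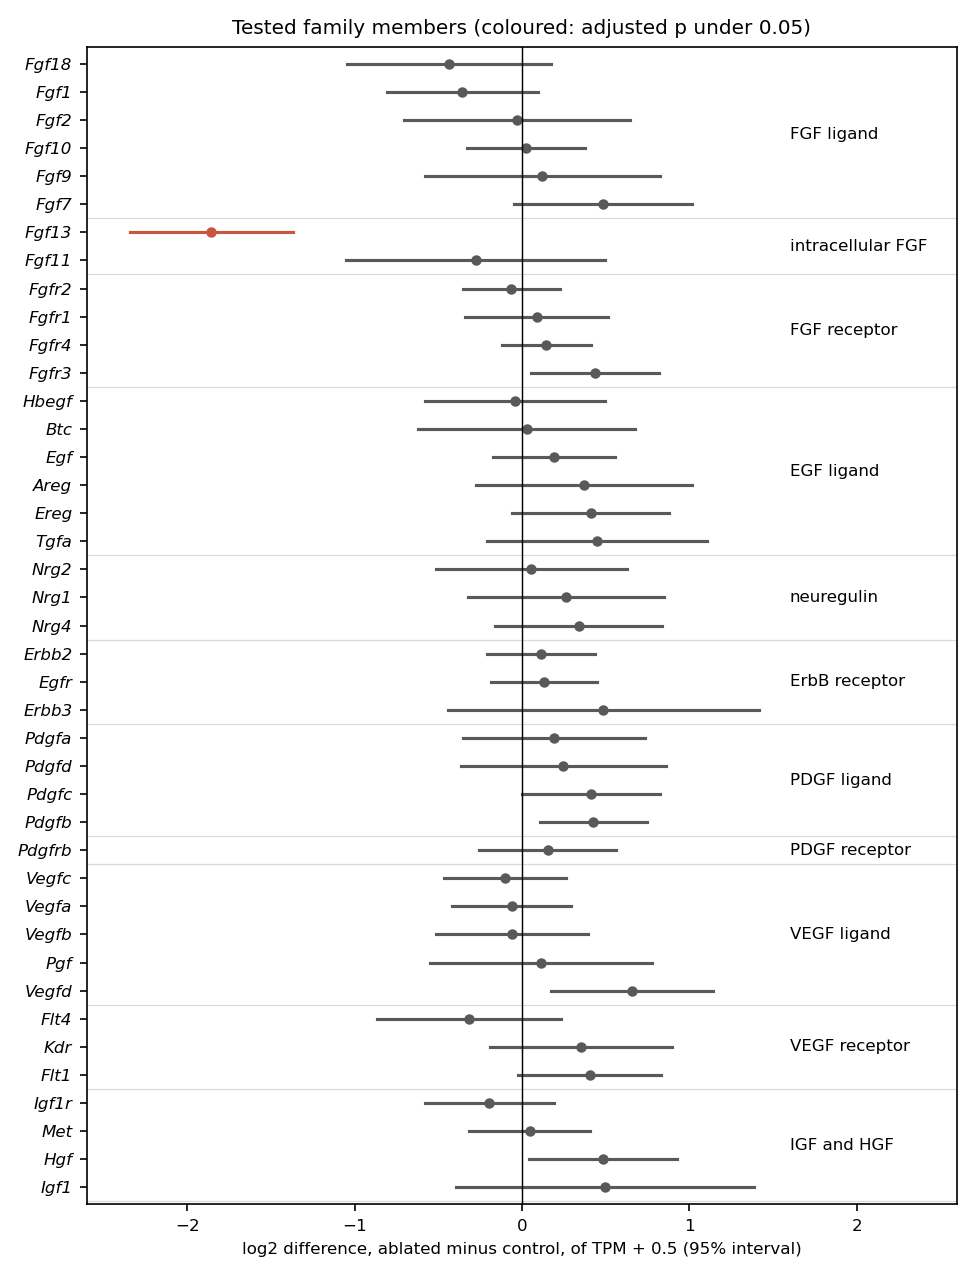
Log2 difference (ablated minus control, log2 of TPM + 0.5) of the 41 tested members, with 95% intervals from limma, by family. The coloured gene, Fgf13 at -1.86, lies apart from the others, which run from -0.44 to 0.66.

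Fgf13, an intracellular FGF that also binds microtubules in growing neurons (gene ID 14168, chromosome X, 59062145 to 59568071, minus strand, mm10), was measured at 1.58, 4.31, 3.82, 2.49 and 3.24 TPM in control. Its values in ablated were 0.517, 0.699, 0.480, 0.315, 0.766, 0.252 and 0.254 TPM. The groups did not overlap, and the lowest control was 2.06 times the highest ablated. The means were 3.09 ± 1.08 and 0.469 ± 0.209 TPM, so that Fgf13 fell 6.59-fold and 15.2% of the control level was left, on 479 and 96 reads. The log2 difference was -1.86 (95% interval -2.34 to -1.37, limma adjusted p = 0.000791). It passed under all 27 alternative settings, at adjusted p of 0.000278 to 0.0257. For scale, the neuron markers Snap25, of vesicle fusion, and Stmn2, a tubulin-binding protein, fell 3.09-fold and 3.05-fold, and Prph, a neuronal intermediate filament, and Calb2, a calcium-binding protein, fell 13.8-fold and 45.6-fold.

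Fgf13 has several transcription starts that give proteins with different N-termini, and a value per gene does not say which of them fell. RefSeq promoter windows (GRCm38.p6) matched 44 of the 58 members by symbol, and Fgf13 had 4 starts among them. The 250 bases before each start are shown because the comparison turns on this gene, with the window of Fgf11, the most abundant intracellular FGF here, beside them. Capitals mark GC boxes, searched as GGGCGG and its reverse complement CCGCCC, and starts are numbered from the 5′ end of the gene. The RefSeq starts differ from the GENCODE gene spans. Start 1 of Fgf13 lies outside the span given above, and the Fgf11 start lies outside the GENCODE span of Fgf11.
Fgf13 start 1, chrX:59585573-59585822, minus strand: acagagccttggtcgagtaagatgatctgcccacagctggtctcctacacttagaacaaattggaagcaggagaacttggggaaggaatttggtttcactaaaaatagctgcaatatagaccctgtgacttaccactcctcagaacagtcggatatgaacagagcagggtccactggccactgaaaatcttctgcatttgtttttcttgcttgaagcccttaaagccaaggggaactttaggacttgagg
Fgf13 start 2, chrX:59567349-59567598, minus strand: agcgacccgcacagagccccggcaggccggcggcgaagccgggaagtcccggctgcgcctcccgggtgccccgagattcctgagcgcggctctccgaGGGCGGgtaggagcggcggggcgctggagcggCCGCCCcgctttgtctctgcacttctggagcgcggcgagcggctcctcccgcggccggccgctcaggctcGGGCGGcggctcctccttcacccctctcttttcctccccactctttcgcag
Fgf13 start 3, chrX:59166089-59166338, minus strand: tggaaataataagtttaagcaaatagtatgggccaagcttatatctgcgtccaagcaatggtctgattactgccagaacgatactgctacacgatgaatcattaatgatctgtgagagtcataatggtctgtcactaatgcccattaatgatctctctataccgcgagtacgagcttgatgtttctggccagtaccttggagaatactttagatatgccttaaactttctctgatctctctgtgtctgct
Fgf13 start 4, chrX:59134437-59134686, minus strand: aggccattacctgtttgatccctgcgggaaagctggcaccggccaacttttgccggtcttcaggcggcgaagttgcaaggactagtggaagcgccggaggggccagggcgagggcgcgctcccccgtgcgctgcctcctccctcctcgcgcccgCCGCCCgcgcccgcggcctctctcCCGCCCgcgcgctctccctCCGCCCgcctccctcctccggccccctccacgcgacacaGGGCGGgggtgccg
Fgf11 start 1, chr11:69802281-69802530, minus strand: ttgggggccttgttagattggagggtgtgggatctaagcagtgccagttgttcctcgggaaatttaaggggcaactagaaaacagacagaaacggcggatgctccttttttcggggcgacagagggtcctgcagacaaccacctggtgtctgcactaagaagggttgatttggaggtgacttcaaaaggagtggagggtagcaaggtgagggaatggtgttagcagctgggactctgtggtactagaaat
Starts 2 and 4 of Fgf13 were GC-rich, with 33 and 31 CpG dinucleotides and 3 and 4 GC boxes. Starts 1 and 3 held 2 and 6 CpG and no GC box, and Fgf11 held 5 CpG and no GC box. A GC box lay in 32.7% of all 32851 windows of this length, and the median window held 6 CpG. In the 56 windows of the members a GC box was more frequent, at 57.1%, and the median was 15 CpG. TATAAA, on either strand, was in none of the windows shown and in 12.4% of all windows. These matches describe the letters alone and were not related to the fall of Fgf13.

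The other intracellular FGFs did not pass or were too low to test. Fgf11 was at 3.59, 4.73, 5.40, 7.63 and 5.97 TPM in control and at 1.33 (ablated 1), 5.14 (median) and 8.36 (ablated 3) in ablated. Its groups overlapped, with a log2 difference of -0.28 (95% interval -1.05 to 0.50, limma adjusted p = 0.871). The ratio of Fgf13 to Fgf11 was 0.326 to 0.910 in control and 0.0310 to 0.388 in ablated. With 0.5 TPM added to each gene, the mean log2 ratio was -0.76 in control and -2.34 in ablated. Since Fgf13 was set against Fgf11 after its own fall was known, the ratio is a description with no test. Fgf12 was below the minimum for testing at 0.410 ± 0.241 and 0.292 ± 0.110 TPM. Fgf14, which acts at the axon initial segment in brain neurons, was also below it at 0.191 ± 0.0510 and 0.132 ± 0.0653, on 38 and 36 reads. For Fgf14, 6 of the 7 ablated libraries lay below the lowest control; with no minimum its limma adjusted p was 0.642.

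**Figure D2:**
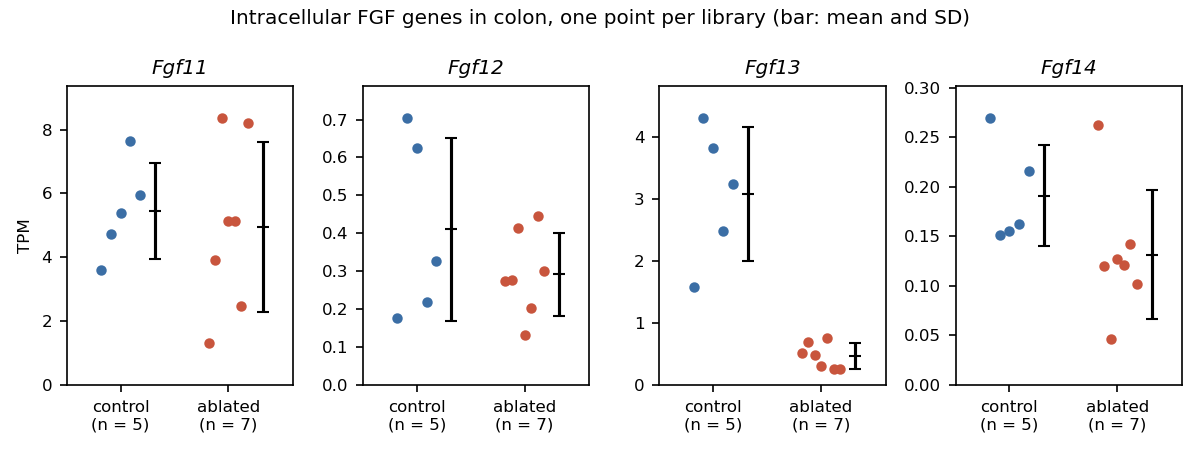
TPM of the 4 intracellular FGF genes in each library, on axes that start at 0 and differ between panels; black marks give the mean and SD of 5 control and 7 ablated libraries. For Fgf13 the lowest control is at 1.58 and the highest ablated at 0.766 TPM, and for the other genes the groups overlap.

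Among the 18 secreted FGF ligands 6 could be tested, and none passed. Fgf1, which binds all FGF receptors, was the most abundant at 21.0, 17.9, 20.2, 20.4 and 17.1 TPM in control. In ablated it was at 8.35 (ablated 1), 15.5 (median) and 21.2 (ablated 7), with 4 libraries below the control range and 1 above it (log2 difference -0.36, limma adjusted p = 0.572). Fgf7, a stromal ligand that acts on epithelium through FGFR2, was at 7.36 ± 2.18 and 10.8 ± 4.20 TPM in control and ablated (limma adjusted p = 0.481). Fgf9, which signals between epithelium and mesenchyme in the developing gut, was at 3.68 ± 0.551 and 4.65 ± 3.13, with its highest value in ablated 1 and an ablated median of 3.28. Fgf10, a ligand of FGFR2 in gut development, was at 3.64 ± 0.544 and 3.75 ± 0.774, Fgf18 at 2.48 ± 1.02 and 1.75 ± 0.842, and Fgf2, the basic FGF, at 0.881 ± 0.5682 and 0.864 ± 0.616. Exons of Fgf2 share 640 bases with Nudt6 on the opposite strand and 255 with the gene model Gm43439 on the same strand. Whether counting used strand is not given in the sources used here. The other 12 ligands (Fgf3, Fgf4, Fgf5, Fgf6, Fgf8, Fgf15, Fgf16, Fgf17, Fgf20, Fgf21, Fgf22 and Fgf23) were below the minimum, and 11 of them, all but Fgf5, were listed at 0 in at least 1 library. Fgf15, the bile acid-induced hormone of the ileum, was above 0 in control 4 alone, at 0.0440 TPM.

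All 4 FGF receptors were tested, and none passed. Fgfr3, the most abundant, was at 23.8, 18.9, 29.9, 30.1 and 37.0 TPM in control and 26.4 (ablated 5), 40.4 (median) and 45.0 (ablated 7) in ablated. Above the highest control lay 4 of the 7 ablated libraries, a 1.35-fold difference of means (log2 difference 0.44, 95% interval 0.05 to 0.82, unadjusted p = 0.0283, limma adjusted p = 0.330). Exons of Fgfr3 share 998 bases with the gene model G630022F23Rik on the opposite strand. Fgfr2, whose epithelial form binds Fgf7 and Fgf10, was at 20.5 ± 3.22 and 19.6 ± 2.92 TPM, and Fgfr4 at 13.9 ± 2.07 and 15.5 ± 1.90. Exons of Fgfr2 share 314 bases with Ctbp2 on the same strand. Fgfr1, a receptor of mesenchymal cells, was at 12.4 ± 0.677 and 13.7 ± 4.06, and its ablated libraries spread from 7.77 to 17.7 TPM around a control range of 11.6 to 13.4.

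Of the 7 EGF ligands 6 were tested, and none passed. Areg, which encodes amphiregulin, was the most abundant, at 22.9, 22.7, 20.5, 25.6 and 40.9 TPM in control and 21.2 (ablated 2), 25.3 (median) and 76.8 (ablated 1) in ablated, and the ablated median was inside the control range. Tgfa, an epithelial ligand of EGFR, was at 6.70 ± 1.37 and 10.2 ± 5.01 TPM, with 4 ablated libraries above the highest control and 2 below the lowest (limma adjusted p = 0.646). With a weight per library Tgfa was called higher (log2 difference 0.82, limma adjusted p = 0.0461), a setting that called 6.76% of all genes, and with an epithelial marker score as a covariate its log2 difference was -0.14 (adjusted p = 0.637). Hbegf, the mouse counterpart of the toxin receptor, was at 11.8 ± 3.63 and 11.3 ± 3.36, and its groups covered nearly the same range, 6.07 to 15.6 and 6.74 to 15.5 TPM. Whether reads of the primate transgene reach this gene was not tested. Btc, which encodes betacellulin, was at 4.46 ± 0.698 and 4.98 ± 2.18, Ereg, which encodes epiregulin, at 2.28 ± 0.833 and 3.19 ± 0.835, and Egf itself at 1.66 ± 0.144 and 2.01 ± 0.567. Epgn, which encodes epigen, was below the minimum at 0.251 ± 0.163 and 0.513 ± 0.197 TPM; with no minimum its limma adjusted p was 0.311.

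No neuregulin passed. Nrg4, an ErbB4 ligand, was the most abundant of them, at 1.68, 1.36, 1.98, 1.45 and 1.88 TPM in control and 0.803 (ablated 1), 2.75 (median) and 2.93 (ablated 2) in ablated. Ablated 1 lay below the lowest control and the other 6 ablated libraries above the highest. The log2 difference was 0.34 (limma adjusted p = 0.646), and 0.52 without ablated 1 (adjusted p = 0.0846). Exons of Nrg4 share 368 bases with Fbxo22 and 177 with the gene model Gm15625, both on the opposite strand. Nrg1, which acts on glia and Schwann cells through ErbB3, was at 1.45 ± 0.728 and 1.79 ± 0.734 TPM, and Nrg2 at 0.404 ± 0.320 and 0.419 ± 0.248. Nrg3, a neuregulin of neurons that binds ErbB4, was below the minimum for testing. It was above 0 in all 5 control libraries, at 0.0592 to 0.225 TPM, and listed at 0 in 5 of the 7 ablated ones, with 0.0594 in ablated 3 and 0.144 in ablated 5. These levels rest on 38 and 10 reads; with no minimum the unadjusted p was 0.00486 and the limma adjusted p 0.152.

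The ErbB receptors did not pass either. Erbb2, the coreceptor that needs no ligand of its own, was second to Pdgfa among all members, at 58.7, 38.5, 64.0, 65.3 and 54.2 TPM in control and 49.4 (ablated 4), 62.0 (median) and 78.2 (ablated 1) in ablated. Its means of 56.1 ± 10.8 and 60.3 ± 9.81 differed by less than either SD. Erbb3, which pairs with ErbB2 in glia and epithelium, was at 29.8 ± 7.13 and 50.1 ± 31.6 (log2 difference 0.48, limma adjusted p = 0.757). That difference was 0.98 with a weight per library and -0.38 with the epithelial score as a covariate, passing in neither (limma adjusted p = 0.0630 and 0.273). Ablated 1, 2 and 6 held 15.8, 24.6 and 19.8 TPM of Erbb3, and ablated 3, 4, 5 and 7 held 47.2, 65.6, 91.7 and 85.9, all above the highest control. Egfr was at 6.76 ± 0.837 and 7.53 ± 1.46. Erbb4 was listed at 0 in 9 of the 12 libraries, with 1 read in control and 2 in ablated.

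All 4 PDGF ligands had a positive log2 difference, as did 55.7% of all genes tested, and none passed. Pdgfa, which encodes the A chain, was the most abundant of all members at 134, 117, 148, 123 and 143 TPM in control and 105 (ablated 4), 127 (median) and 341 (ablated 1) in ablated. The ablated median was within the control range, and the log2 difference of 0.19 (limma adjusted p = 0.872) was -0.0031 without ablated 1. Exons of Pdgfa share 813 bases with 6330403L08Rik on the opposite strand. Pdgfb, the B chain with which endothelium recruits pericytes, was at 3.11, 3.83, 3.50, 4.70 and 4.60 TPM in control and 4.40 (ablated 5), 5.21 (median) and 7.18 (ablated 1) in ablated. Above the highest control lay 6 of the 7 ablated libraries, a 1.39-fold difference of means (log2 difference 0.43, 95% interval 0.11 to 0.75, limma adjusted p = 0.236). The log2 difference of Pdgfb was 0.29 to 0.49 over the 27 alternatives and passed under none. The 7 pericyte markers had positive differences too (median 0.36), none passing, with summed levels of 72.2 to 89.7 and 87.7 to 204 TPM.

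Pdgfc and Pdgfd, ligands that are cut to become active, were at 1.90 ± 0.501 and 2.73 ± 0.790 TPM and at 1.67 ± 0.478 and 2.20 ± 1.03 TPM. Pdgfrb, the receptor of pericytes and fibroblasts, was at 6.72, 7.57, 6.32, 7.44 and 7.01 TPM in control, a narrow band. In ablated Pdgfrb was at 5.42 (ablated 5), 8.13 (median) and 12.8 (ablated 1), with 4 libraries above and 3 below that band (log2 difference 0.15, limma adjusted p = 0.860).

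Vegfd, a ligand of the lymphatic receptor VEGFR3 (chromosome X, 164373378 to 164402650, mm10), had the largest positive difference of the 41 members. It was at 2.28, 1.75, 2.93, 2.25 and 2.11 TPM in control and at 5.02, 5.48, 3.92, 3.67, 2.35, 5.43 and 2.21 in ablated. Above the highest control lay 5 of the 7 ablated libraries, and ablated 5 and 7 lay among the controls. The means of 2.26 ± 0.426 and 4.01 ± 1.37 TPM differed 1.77-fold (log2 difference 0.66, 95% interval 0.17 to 1.14, unadjusted p = 0.0118) and did not pass (limma adjusted p = 0.226).

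The other VEGF ligands did not pass. Vegfa, the main signal for blood vessel growth and the most abundant of the 5, was at 42.1, 49.8, 50.1, 56.8 and 72.7 TPM in control and 34.6 (ablated 1), 53.7 (median) and 67.2 (ablated 3) in ablated. The groups overlapped in most of their range (log2 difference -0.06, 95% interval -0.42 to 0.30, limma adjusted p = 0.949). Vegfb was at 29.8 ± 2.65 and 29.9 ± 9.66, Vegfc, the main ligand of lymphatic growth, at 8.22 ± 1.21 and 7.76 ± 2.01, and Pgf, placental growth factor, at 2.05 ± 1.004 and 2.21 ± 0.942 TPM.

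Among the VEGF receptors, Kdr, which encodes VEGFR2, was the most abundant, at 3.29, 2.98, 2.25, 4.07 and 3.87 TPM in control and 2.34 (ablated 1), 4.32 (median) and 6.94 (ablated 5) in ablated. Flt1, which encodes VEGFR1, was at 1.92 ± 0.626 and 2.65 ± 0.508, with 5 ablated libraries above the highest control (limma adjusted p = 0.454). Flt4, which encodes VEGFR3, was at 2.76 ± 0.562 and 2.28 ± 1.27, with 5 ablated libraries below the lowest control and ablated 2 above the highest. Markers of endothelium (9 genes, median log2 difference 0.16) and of lymphatic endothelium (3 of 5 genes tested, median -0.45) had no member that passed. Their summed levels were 73.8 to 97.9 and 64.8 to 117 TPM for endothelium and 39.5 to 54.3 and 19.7 to 52.9 for lymphatic endothelium.

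Hgf, the stromal ligand of the epithelial receptor MET, was at 0.799, 0.623, 0.636, 1.18 and 0.599 TPM in control and 0.633 (ablated 6), 1.36 (median) and 2.15 (ablated 4) in ablated. Above the highest control lay 4 ablated libraries (log2 difference 0.49, 95% interval 0.04 to 0.93, unadjusted p = 0.0337, limma adjusted p = 0.357). Exons of Hgf share 484 bases with the gene model Gm43489 on the same strand. Met was at 17.4, 13.5, 12.8, 14.2 and 12.6 TPM in control and 10.9 (ablated 1), 14.6 (median) and 20.2 (ablated 7) in ablated (limma adjusted p = 0.963). Igf1, a growth factor of stromal cells and macrophages, was at 3.75 ± 0.781 and 6.85 ± 5.56; ablated 1, 6 and 2 held 17.8, 9.61 and 7.95 TPM and the other 4 held 2.37 to 4.04. Its receptor Igf1r was at 6.35 ± 0.667 and 5.62 ± 1.49.

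Ablated 1 was most often the extreme of its group. It was the highest of the 7 for 11 of the 41 tested members and the lowest for 16, or 65.9% in all, against 61.3% of all genes tested. Members highest there included Pdgfa, Igf1, Areg and Fgf9, and members lowest there included Fgf1, Fgf11, Btc and Nrg4. The epithelial score (the mean of 11 centred log2 marker values) was -0.35 in ablated 1, -0.17 in ablated 6 and 0.08 in ablated 2. It was 0.12 to 0.43 in the other 4 ablated libraries and -0.36 to 0.02 in control.

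**Figure D3:**
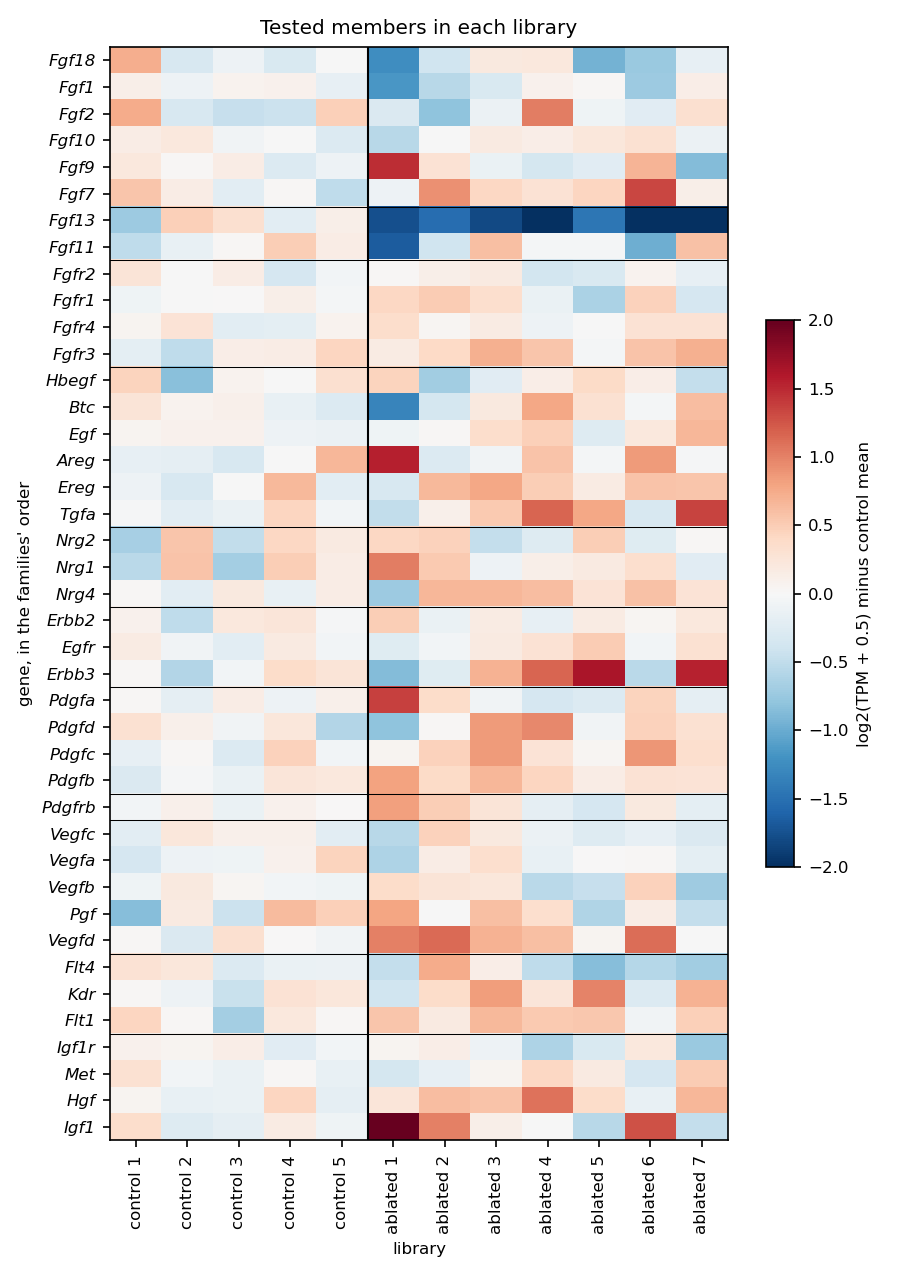
Each tested member (rows, by family) in each library (columns), as log2(TPM + 0.5) minus the mean of the 5 control libraries. The row of Fgf13 is low in all 7 ablated libraries, while rows such as Igf1, at 17.8 TPM in ablated 1 and 2.37 in ablated 5, differ among the ablated libraries.

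With this score as a covariate, 4 members were called higher and 3 lower in ablated, where 14.1% of all genes were called. Vegfd (log2 difference 0.98, limma adjusted p = 0.0121), Igf1 (1.27, adjusted p = 0.0139), Fgf9 (0.76, adjusted p = 0.0256) and Pdgfa (0.65, adjusted p = 0.0286) were higher. Fgf13 (-1.89, limma adjusted p = 0.00286), Fgf1 (-0.72, adjusted p = 0.0140) and Fgf11 (-0.92, adjusted p = 0.0357) were lower. Without the covariate Fgf13 alone of these 7 was called, and the same held with a smooth muscle score or the mitochondrial share in its place. The score is computed from the same libraries, and this fit adjusts for it along a straight line. Most ablated libraries had scores above the control range of -0.36 to 0.02, so group and score cannot be fully told apart.

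**Figure D4:**
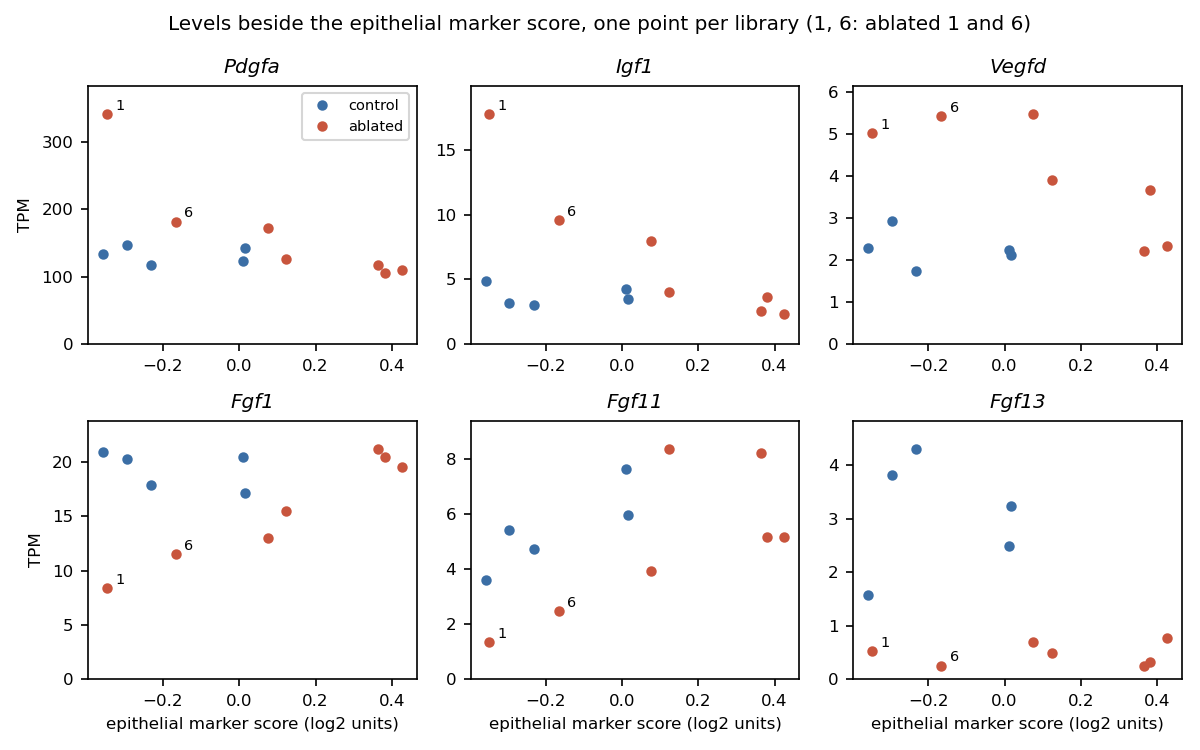
TPM of 6 members against the epithelial marker score of each library, 5 control and 7 ablated; the points marked 1 and 6 are ablated 1 and 6. Pdgfa and Igf1 are highest in ablated 1, at 341 and 17.8 TPM, Fgf1 is lowest there at 8.35 TPM, and Fgf13 is under 0.766 TPM or at it in every ablated library whatever the score.

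Genes that act around these ligands and receptors were read from 8 lists. Of their 114 tested genes none passed in either direction, 16 had an unadjusted p under 0.05 in limma, and the median log2 difference was 0.10. Feedback inhibitors and early targets of the kinases (18 tested, median 0.11) included Etv1, an ETS factor of interstitial cells of Cajal, at 3.23 ± 1.01 and 1.998 ± 0.251 TPM in control and ablated with groups that did not overlap (limma adjusted p = 0.172), and Lrig1, an ErbB inhibitor of crypt stem cells, at 62.9 ± 5.75 and 50.5 ± 9.78. FGF coreceptors and carriers (18 tested, median 0.04) included the basement membrane proteoglycan Hspg2, at 12.7 ± 2.01 and 18.9 ± 5.01, and the glypican Gpc3, with a log2 difference of -0.66 (limma adjusted p = 0.263). EGF ligand shedding (9 tested, median 0.15) included the iRhom gene Rhbdf1, at 24.9 ± 4.83 and 33.5 ± 4.97, and the ErbB2-binding scaffold Erbin, at 74.4 ± 5.23 and 98.0 ± 23.6. Neuregulin partners in nerve (8 tested, median 0.04) included Bace1, a secretase that cuts NRG1, at 11.9 ± 0.680 and 14.6 ± 0.689 with groups apart (limma adjusted p = 0.157), and Adam19, at 4.91 ± 0.651 and 7.50 ± 1.76.

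In the VEGF list (13 tested, median 0.07) Angpt2, an antagonist of the TIE2 receptor, was at 2.68 ± 0.117 and 1.72 ± 0.397 TPM (limma adjusted p = 0.119), and Hif1a, the oxygen-regulated factor that induces Vegfa, at 56.5 ± 7.08 and 81.7 ± 34.7. The PDGF list (4 tested, median 0.27) held Plat, the plasminogen activator that also cuts PDGF-C, at 7.41 ± 0.736 and 17.8 ± 9.30, the lowest adjusted p of the 114 genes at 0.0554 in limma, and Pdgfra, at 9.08 ± 0.708 and 10.5 ± 1.06. In the IGF and HGF list (21 tested, median 0.09) Igfbp2, an IGF-binding protein, was at 119 ± 53.3 and 529.8 ± 500.3 (limma adjusted p = 0.0988), and Irs1, an insulin receptor substrate, at 3.27 ± 0.550 and 2.172 ± 0.405. The shared signalling core (24 tested, median 0.09) included the adaptors Shc1, at 36.4 ± 2.80 and 42.6 ± 4.44, and Frs2, at 10.6 ± 1.11 and 13.8 ± 2.91. Like those of Etv1 and Bace1, the groups lay apart for Angpt2 and Irs1, with ablated lower, and for Plat, with ablated higher. In the other tested context genes they overlapped. Separation in either direction was seen in 2.88% of the 16164 genes.

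An edgeR comparison in the authors' deposited table used the same libraries, so it is another calculation on the same samples. In the authors' deposited table Fgf13 had a log2 fold change of -2.77 and a false discovery rate of 0.00093, the 1 member of 58 under 0.05, where 1.34% of 22842 genes were. Vegfd had the next lowest rate in the authors' deposited table, 0.310. The sign in the authors' deposited table was that of the fit reported here for all 41 tested members.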

How the data were processed

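The series holds 12 RNA libraries of mouse colon. Per the labels' protocols, RNA was isolated with Trizol, and polyadenylated RNA went into a directional library kit. Base calls were split by bcl2fastq 2.17, and HISAT and featureCounts were used with mm10, per the submitters' processing notes; other versions are not given in the sources used here. The authors deposited TPM per gene, with identical values in the series table and the files of single samples. The authors' deposited table also gives an edgeR log2 fold change, a mean log2 CPM, an F score, a p-value and a false discovery rate.

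Because TPM are not counts, limma 3.58.1 (R 4.3.3, trended eBayes) was fitted to log2(TPM + 0.5) for the 16164 of 27179 genes that had 0.5 TPM or more in 5 or more libraries. Tests were two-sided, and Benjamini-Hochberg adjustment ran over all genes fitted. The script was tested on simulated data. Fold is the ratio of mean TPM, and the log2 scale understates changes of low genes. Whole reads were recovered for 22840 of 22842 genes above 0 (within 0.05 read) and give the depth. Coordinates come from GENCODE M21 and promoter windows from RefSeq. Tables used Python 3.11.15.

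Members printed per library are those called, those with an unadjusted p under 0.05 and the most abundant of each family, and context genes are the 2 of lowest p in a list; other genes were added after their values were seen. The members and lists were chosen with earlier results of these data known. Alternatives changed the added constant (1 or 0.1), the minimum (none or 1 TPM), scaling, variance model, weights, covariates and block, used voom on recovered reads, or dropped single libraries; dropping control 1 and ablated 1 together was chosen after seeing the data.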

Additional observations from a re-analysis of the deposited data

Results flagged for a closer look

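Of 30 sets of values checked (15 members in control and in ablated), 3 held a library far from the rest of its group. The rule flags about 1 in 20 sets of independent, normally distributed values. The sets share libraries, and members were picked partly by p-value or level in these data, so that rate is a rough guide. Pdgfa was at 341 TPM in ablated 1, and the next ablated library at 182. Nrg4 was at 0.803 TPM in ablated 1, and the next at 2.11. Areg was at 40.9 TPM in control 5, and the next control library at 25.6. Ablated 1 was also the shallowest library, at 13.4 M reads; the part of depth or RNA quality in these values was not tested.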

How the results depend on the processing

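Fgf13 was lower and past the threshold under all 27 alternatives. Members called became 4 higher and 3 lower, Fgf13 included, with an epithelial score as a covariate, and 1 higher (Tgfa) and 1 lower with a weight per library; no other alternative called a member besides Fgf13. The counts over all genes, 68 higher and 163 lower, became 654 and 438 with a weight per library, 1001 and 1272 with the epithelial score, 334 and 359 with the mitochondrial share, and 273 lower with no minimum; the cause was not tested. With 1 library left out they were 23 to 126 higher and 105 to 202 lower, members stayed at 0 and 1, and context genes at 0 to 1 higher and 0 lower. Context genes called, 0 in each direction in the main setting, were 8 higher and 4 lower with a weight per library, 11 and 5 with the epithelial score, 7 and 2 with the mitochondrial share, and 1 higher with the smooth muscle score.

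No pairing by library number was seen (correlations of same-numbered libraries -0.269 to 0.359, with control 2 alone closest to its own number). Other differences among the libraries also enter these correlations, so they cannot exclude a pairing. With number as a replicate block, 15 genes were higher and 74 lower, 1 context gene was higher, and Fgf13 had a limma adjusted p of 0.0257.

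Of the 41 tested members, 21 changed sign under at least 1 alternative, 12 of them with the epithelial score: Btc, Egfr, Erbb2, Erbb3, Fgf2, Fgf9, Fgf10, Fgf11, Fgfr1, Fgfr2, Hbegf, Igf1r, Kdr, Met, Nrg2, Pdgfa, Pdgfrb, Pgf, Tgfa, Vegfa and Vegfb, none of them called in the main setting. Values follow for those printed per library. With a weight per library Fgf11 was 0.0319, Pdgfa -0.110 and Pdgfrb -0.0499. With the epithelial score Kdr was -0.0719 and Met -0.178, and with quantile scaling Met was -0.0151. With 1 library left out Erbb2 ranged from -0.0169 to 0.172, Met from -0.0329 to 0.121, Pdgfa from -0.00309 to 0.280 and Vegfa from -0.147 to 0.0483. Depth limits the 17 members below the minimum, where 1 read per kilobase is worth 0.0697 to 0.129 TPM.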
